A study of Mus musculus with 3 samples.

Results

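The surface markers of fibroblasts and other mesenchymal stromal cells were examined as 10 genes, namely Thy1, Ly6a, Cd34, Cd44, Eng, Nt5e, Mcam, Cd248, Fap and Vcam1. They were found by their gene symbols among the 55573 genes of the deposited expression table, and each of the 10 symbols matched 1 row. The values come from UMI-RNAseq of untreated NIH3T3, an established line of mouse embryo fibroblasts grown in medium with fetal bovine serum, in 3 libraries that share 1 condition. Unique molecular identifiers (UMI) are random tags on each molecule that allow copies made by PCR to be removed. Levels are given in FPKM, which divides the fragments of a gene by its length in kilobases and by the counted fragments of the library, in units of 1000000. The libraries rested on 13959723 to 14423209 fragments, totals that were recovered from the FPKM values. No source ties the libraries to separate cultures, and the spread between them, with every p below, may therefore be technical. The cells were detached with trypsin before lysis, and the growth text of the labels names NIH3T3 whereas their extraction text mentions retina. No primary fibroblast or other cell was measured beside NIH3T3, so a low level can be described, but a loss from an earlier state cannot be shown.

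Mesenchymal stromal cells carry no single surface protein that is theirs alone, and they are recognized by a panel. Human stromal cell cultures are defined by the presence of CD90, CD105 and CD73, which are encoded in mouse by Thy1, Eng and Nt5e, and by the absence of blood markers such as CD45 and, in human cultures, CD34. In mouse tissues, Ly6a (Sca-1) and Cd34 are widely used to sort fibroblasts and stromal progenitors. Thy1, Ly6a and Nt5e encode proteins held in the outer membrane by a lipid (GPI) anchor, whereas the other markers cross the membrane. Vcam1, Eng, Mcam and Cd34 are also known from endothelium.

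The 10 markers fell into a high and a low group. Cd34, Cd44, Ly6a, Thy1, Cd248 and Vcam1 lay between 19.6 and 354 FPKM in every library, Eng lay near 2 FPKM, and Mcam, Nt5e and Fap stayed below 1 FPKM in every library. Of the 10 markers, 7 had an FPKM of at least 1 in every library, against 22.2% of all listed genes and 48.6% of protein-coding genes. At least 10 FPKM in every library was reached by 6 markers, against 14.4% of all listed genes and 34.9% of protein-coding genes. The median of the 10 mean levels was 32.0 FPKM, whereas the median over the 21903 protein-coding genes was 0.830 FPKM. The markers were not drawn at random from the genome, and these shares are a description of the list.

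**Figure D1:**
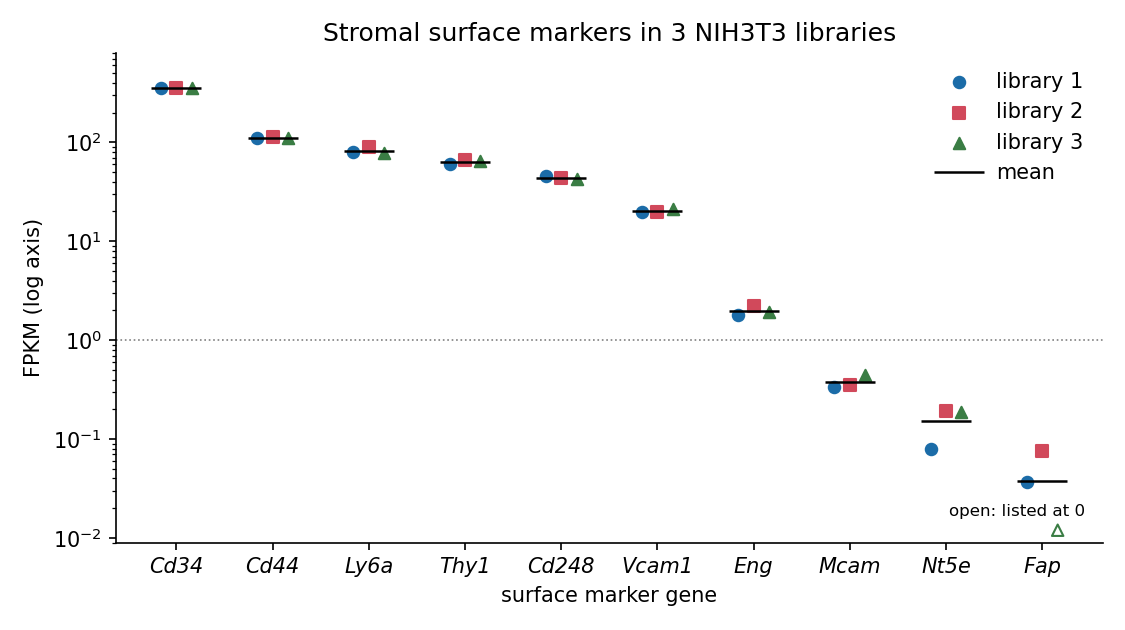
FPKM of each marker gene in libraries 1, 2 and 3 on a log axis, with a bar at the mean of the 3 libraries and a dotted line at 1 FPKM. The 3 values of a marker lie close together from Cd34 to Eng, and Fap, the lowest marker, was listed at 0 in library 3 (open symbol).

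Cd34, a heavily glycosylated sialomucin known from blood stem cells, endothelium and tissue fibroblasts, was the highest marker. It is encoded at chromosome 1, 194938819 to 194961279, plus strand (GRCm38, ENSMUSG00000016494). Its level was 354 FPKM in library 1, 352 FPKM in library 2 and 352 FPKM in library 3 (mean 352.6 ± 1.16, SD, n = 3). The 3 libraries were nearly equal, and the mean exceeded that of 99.0% of protein-coding genes. The value rested on 10777 to 11196 fragments per library. An antisense gene, Gm16897, overlaps 148 nt of the exons of Cd34 on the other strand and had 3.42 to 3.87 FPKM. Strand-specific counting is not stated in the sources.

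Cd44, the main receptor for the matrix sugar hyaluronan, was second. It maps to chromosome 2, 102811141 to 102901665, minus strand (ENSMUSG00000005087) and had 111 FPKM in library 1, 112 FPKM in library 2 and 112 FPKM in library 3. The mean was 111.6 ± 0.777 FPKM (SD, n = 3), and again no library stood apart. Cd44 is known for many splice forms, and 9 isoforms of 1305 to 5614 nt are annotated, which a single FPKM per gene does not separate.

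Ly6a, the small GPI-anchored protein used as Sca-1 to sort stromal and blood progenitors, maps to chromosome 15, 74994877 to 74998031, minus strand (ENSMUSG00000075602). It had 80.3 FPKM in library 1, 89.0 FPKM in library 2 and 78.6 FPKM in library 3 (mean 82.6 ± 5.56, SD, n = 3). Library 2 was the highest and the other two were close to each other. When the annotated isoforms of Ly6a were divided into words of 75 nt, 6.33% of 1311 different words also occurred in another gene, 77 of them in Ly6c1 and 6 in Ly6i. The reads of the study were paired and longer than these words, so a shared word alone does not make a read ambiguous. How many reads could not be assigned was not tested.

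Thy1, the GPI-anchored glycoprotein CD90 of fibroblasts, neurons and mouse T cells, maps to chromosome 9, 44043384 to 44048579, plus strand (ENSMUSG00000032011). It had 59.8 FPKM in library 1, 66.3 FPKM in library 2 and 65.3 FPKM in library 3, and library 1 was the lowest. Its mean was 63.8 ± 3.50 FPKM (SD, n = 3), above 90.7% of protein-coding genes.

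Cd248, endosialin, is a C-type lectin receptor of activated fibroblasts and pericytes and is encoded at chromosome 19, 5068078 to 5070682, plus strand (ENSMUSG00000056481). It had 45.4 FPKM in library 1, 43.8 FPKM in library 2 and 42.6 FPKM in library 3 (mean 43.9 ± 1.42, SD, n = 3). It is the marker with 1 annotated isoform, so its level does not depend on which isoform is used for its length.

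Vcam1, the adhesion molecule that binds white blood cells through integrins, maps to chromosome 3, 116109949 to 116129688, minus strand (ENSMUSG00000027962). It had 19.9 FPKM in library 1, 19.6 FPKM in library 2 and 20.97 FPKM in library 3 (mean 20.1 ± 0.743, SD, n = 3). This is close to the median of 22.5 FPKM over the 10653 protein-coding genes that had at least 1 FPKM in every library. Vcam1 thus lay in the middle of the expressed genes, whereas the markers above it lay in their upper part.

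**Figure D2:**
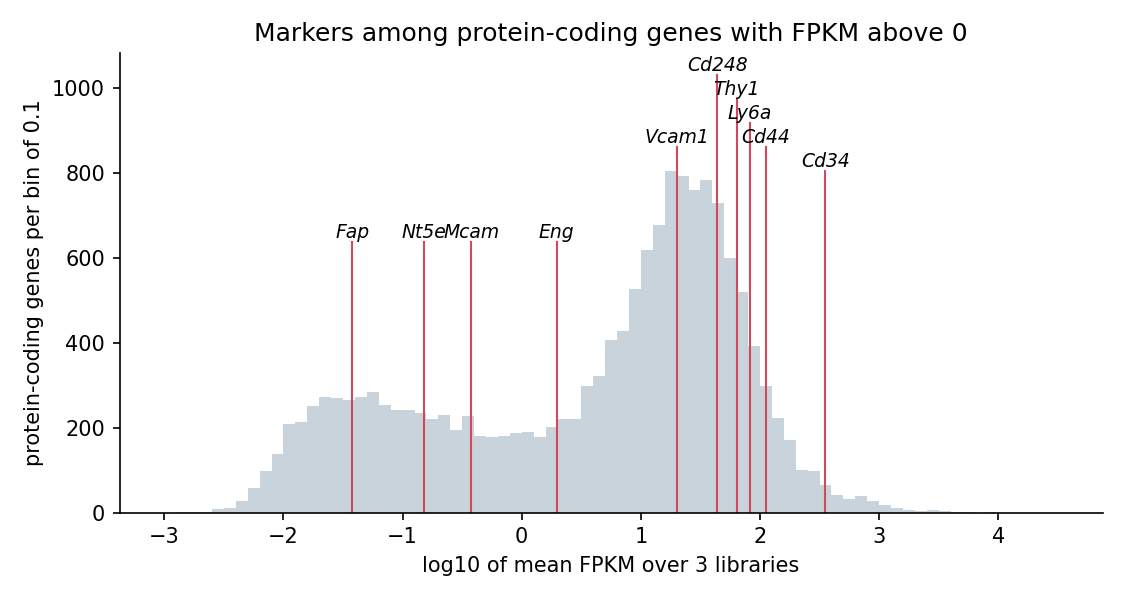
Number of protein-coding genes in bins of 0.1 of the log10 of mean FPKM over the 3 libraries, for genes with a mean above 0, with red lines at the means of the 10 markers. Mcam, Nt5e and Fap lie among genes with few fragments, and Cd34 lies in the upper tail.

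The low group began with Eng (endoglin, CD105), a co-receptor that presents ligands of the TGF-beta and BMP family to their kinase receptors. It is encoded at chromosome 2, 32646595 to 32682669, plus strand (ENSMUSG00000026814). Its level was 1.79 FPKM in library 1, 2.21 FPKM in library 2 and 1.91 FPKM in library 3 (mean 1.97 ± 0.221, SD, n = 3) from 50, 60 and 53 fragments. Exact Clopper-Pearson 95% confidence intervals were 1.32 to 2.35 FPKM for library 1, 1.69 to 2.85 FPKM for library 2 and 1.43 to 2.50 FPKM for library 3. These intervals overlapped, and a difference in Eng between libraries was not tested. All intervals and limits here cover counting error only. Eng also overlaps 61 nt of the exons of Fpgs on the opposite strand, and Fpgs had 33.1 to 36.0 FPKM.

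Mcam (CD146), an adhesion molecule of endothelium, mural cells and stromal progenitors, maps to chromosome 9, 44134469 to 44142727, plus strand (ENSMUSG00000032135). It had 0.340 FPKM in library 1, 0.351 FPKM in library 2 and 0.441 FPKM in library 3, which came from 7, 7 and 9 fragments.

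Nt5e (CD73), the surface enzyme that converts AMP to adenosine, maps to chromosome 9, 88327197 to 88372092, plus strand (ENSMUSG00000032420). It had 0.0791 FPKM in library 1, 0.191 FPKM in library 2 and 0.186 FPKM in library 3, from 3, 7 and 7 fragments. Library 1 was the lowest, but its interval of 0.0163 to 0.231 FPKM contained the values of the other libraries.

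Fap, a serine protease of activated fibroblasts, is encoded at chromosome 2, 62500943 to 62574075, minus strand (ENSMUSG00000000392) and was the lowest marker. It had 0.0370 FPKM in library 1 from 1 fragment and 0.0765 FPKM in library 2 from 2 fragments. Library 3 had 0 fragments of 14307241, which allows a level of up to 0.112 FPKM at 3 fragments, and the exact interval ended at 0.138 FPKM. Fap was therefore at the limit of detection in these libraries.

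**Figure D3:**
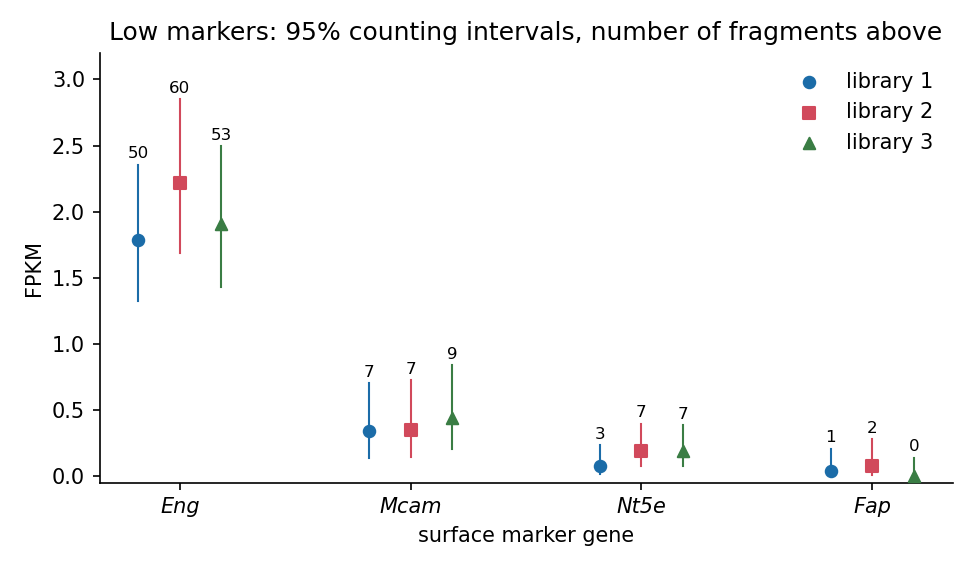
FPKM of the 4 lowest markers in each library on a linear axis, with exact Clopper-Pearson 95% intervals as vertical lines and the number of fragments above each line. The intervals of Eng lie above those of Mcam, Nt5e and Fap, and the intervals of Nt5e and Fap overlap.

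The mean levels fell in the order Cd34, Cd44, Ly6a, Thy1, Cd248, Vcam1, Eng, Mcam, Nt5e and Fap. For 9 of 9 neighbouring pairs in this order, the lowest library of the higher marker lay above the highest library of the lower one. The order was set from these same values, which fixed the direction of each pair before it was compared. The ratio intervals and p given below for these pairs therefore describe the pairs and are no test of the order. Between Nt5e and Fap this gap was 0.0791 against 0.0765 FPKM, and their counting intervals overlapped. Over the 3 libraries together, 17 fragments of Nt5e stood against 3 of Fap, a ratio per length of 4.04 with an exact 95% interval of 1.17 to 21.5. For Mcam over Nt5e, 23 against 17 fragments gave a ratio per length of 2.49 with an interval of 1.28 to 4.97. Their counting intervals overlapped within each library, and a difference between these 2 genes was not tested in single libraries.

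Ratios between neighbours were then taken within each library. Cd34 lay above Cd44 by a factor of 3.16 ± 0.0315 (SD, n = 3), Cd44 above Ly6a by 1.35 ± 0.0820, Ly6a above Thy1 by 1.30 ± 0.0805 and Thy1 above Cd248 by 1.45 ± 0.120. Cd248 lay above Vcam1 by a factor of 2.19 ± 0.137, Vcam1 above Eng by 10.3 ± 1.28, Eng above Mcam by 5.29 ± 0.986 and Mcam above Nt5e by 2.84 ± 1.29 (SD, n = 3 each). The step from Vcam1 to Eng was the widest of these. Flipping the signs of the log2 ratios in an exact permutation test (two-sided) gave p = 0.25 for each of the 8 pairs, and 0.25 after Benjamini-Hochberg adjustment. With 3 libraries no smaller p can be reached, so none of these pairs could pass a threshold of 0.05.

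The deposited FPKM came out as whole fragments when the mean length of the annotated isoforms was used as gene length, and the order in the middle of the panel depends on that length. With the longest isoform in its place, the mean of Cd44 became 55.5 FPKM and that of Ly6a 67.8 FPKM, so that Ly6a lay above Cd44. Thy1 became 30.4 FPKM and then lay below Cd248, which stayed at 43.9 FPKM. Cd34 stayed the highest, at 252 FPKM.

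Among the 3 markers that define human stromal cell cultures, Thy1 was the high one. Its ratio to Eng was 33.5, 29.9 and 34.3 in libraries 1 to 3 (mean 32.6 ± 2.30, SD, n = 3). Its ratio to Nt5e was 756, 348 and 351 in libraries 1 to 3, and the high value of library 1 rested on 3 fragments of Nt5e. Cd34 lay above Thy1 by a factor of 5.54 ± 0.332 (SD, n = 3).

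The spread over libraries was small for the high markers. The coefficient of variation was 0.328% for Cd34, against 0.953% expected from counting error, and 0.696% for Cd44, against 1.501%. It was 5.49% for Thy1, against 3.65%, 3.22% for Cd248, against 2.48%, and 3.69% for Vcam1, against 3.59%. Ly6a varied the most of these 6, with 6.73% against 3.29%. Its spread was 2.04 times the counting error, a ratio that 6.0% of the 8203 genes with a mean of at least 10 FPKM exceeded, and the median ratio over those genes was 0.929. Ly6a and Ly6c1 were also summed, an alternative chosen after seeing the data, which gave 122, 132 and 127 FPKM in libraries 1 to 3 and a coefficient of variation of 3.93%. Summing genes can lower this coefficient by itself, and whether reads were exchanged between Ly6a and Ly6c1 was not tested.

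The genes that act with the markers were listed by marker as ligands, receptors, neighbours in a pathway or close relatives, 51 genes in all. Of these, 30 had at least 1 FPKM in every library, against 48.6% of protein-coding genes, and 9 were listed at 0 in every library. The list is a choice of known partners, and nothing particular to it is read from this share. The same holds for the counts given below for the partners of single markers.

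**Figure D4:**
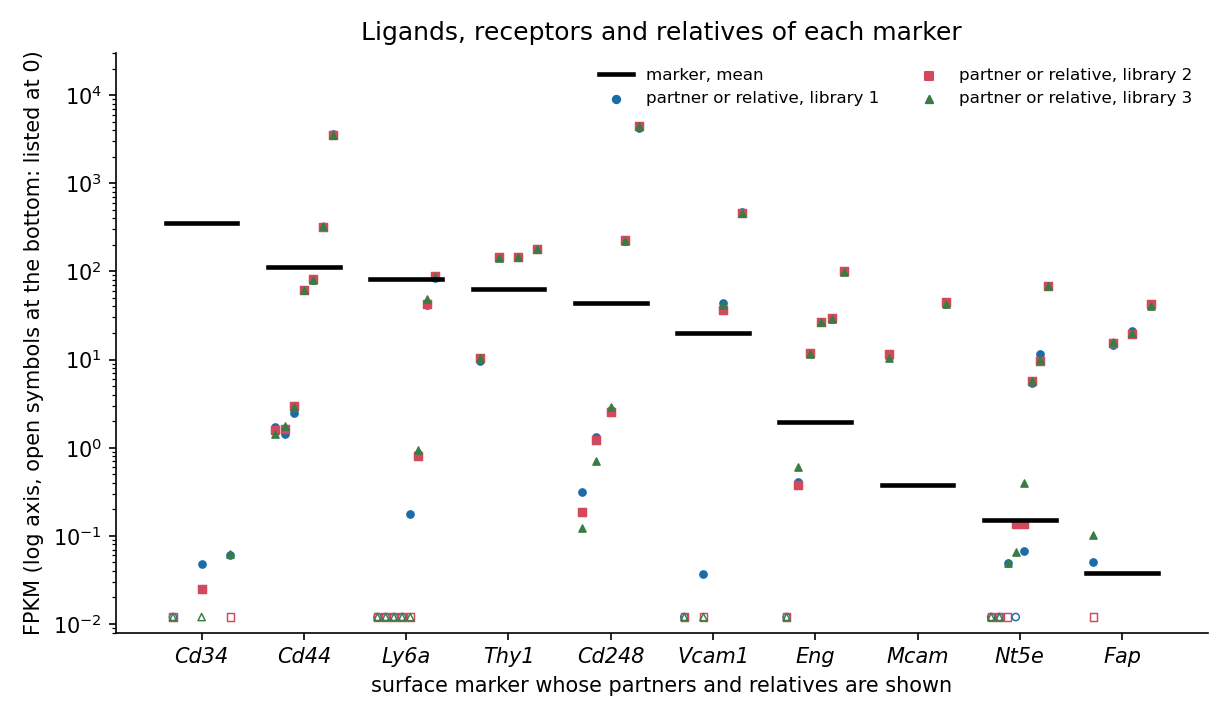
FPKM on a log axis of the ligands, receptors and relatives listed for each marker, 1 symbol per gene and library, with a black bar at the mean of the marker itself. Open symbols at the bottom are values listed at 0, and the bar of Cd34 lies far above the genes listed with it, which stay below 0.1 FPKM.

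Thy1 binds integrins and syndecan on other cells, and 4 of 4 such genes passed 1 FPKM. Itgav had 179 ± 0.266 FPKM (SD, n = 3), Sdc4 145 ± 0.872, Itgb5 144 ± 2.34 and Itgb3 10.0 ± 0.438. Each of the first 3 lay above Thy1 itself in every library.

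For Cd44, 7 of 7 partner genes passed 1 FPKM. Spp1, which encodes the secreted ligand osteopontin, had 3568 ± 16.2 FPKM (SD, n = 3) and lay above Cd44 by a factor of 32.0 ± 0.367, and 18.8% of its exon bases are shared with Gm42793 on the same strand. The linkers that tie Cd44 to the actin cortex were unequal, with 322 ± 2.81 FPKM for Msn, 80.8 ± 1.63 for Ezr and 61.0 ± 0.299 for Rdx. The synthases of hyaluronan, the main ligand of Cd44, were low, with 2.79 ± 0.262 FPKM for Has1, 1.62 ± 0.176 for Has3 and 1.58 ± 0.150 for Has2 (SD, n = 3 each).

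The relatives of Ly6a in the Ly6 gene family split. Ly6e had 83.1, 88.8 and 85.8 FPKM in libraries 1, 2 and 3, close to Ly6a, and Ly6c1 had 41.5, 42.7 and 48.1 FPKM. Ly6i stayed between 0.807 and 0.945 FPKM, Ly6c2 had 3 fragments in library 1 and none in the others, and Ly6d, Ly6f, Ly6g and Ly6k were listed at 0.

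The relatives of Cd34 were near 0. Podxl and Podxl2, which encode the other sialomucins of the family, stayed at or below 0.0615 FPKM in every library.

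Among the partners of Cd248, Fn1 (fibronectin) had 4377 ± 86.1 FPKM (SD, n = 3). Thbd, the thrombin receptor thrombomodulin and a member of the same lectin family, had 221 ± 3.30 FPKM and lay above Cd248 by a factor of 5.03 ± 0.170. The family members of endothelium were lower, with 2.70 ± 0.154 FPKM for Cd93 and 0.122 to 0.319 FPKM for Clec14a, and Mmrn2, a matrix ligand of the family, had 0.715 to 1.33 FPKM.

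Vcam1 is bound by integrins with the subunits of Itga4 or Itga9. Itga4 was listed at 0 in the 3 libraries and Itga9 had 1 fragment in library 1. Their beta subunits were measured, with 463 ± 4.96 FPKM for Itgb1 and 40.8 ± 3.52 for Itgb7 (SD, n = 3). The ligand gene was thus present without transcripts of the alpha subunits beyond 1 fragment.

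Among the partners of Eng, Tgfbr3, the other large co-receptor for TGF-beta, had 100.3 ± 1.85 FPKM (SD, n = 3) and lay above Eng by a factor of 51.4 ± 5.50. The kinase receptors had 29.0 ± 0.204 FPKM for Bmpr2, 26.4 ± 0.0944 for Tgfbr1 and 11.7 ± 0.209 for Tgfbr2. Acvrl1, the kinase receptor that works with Eng in endothelium, had 0.379 to 0.60 FPKM, and its ligand gene Gdf2 was listed at 0.

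The genes of adenosine handling around Nt5e were unequal. Entpd1 and Entpd2, the surface enzymes upstream of Nt5e that degrade ATP, stayed at or below 0.135 FPKM in every library. The uptake and breakdown genes were present, with 68.4 ± 0.332 FPKM for Slc29a1, a nucleoside transporter, and 10.3 ± 1.03 for Ada, which converts adenosine to inosine (SD, n = 3). Of the adenosine receptors, Adora2b had 5.64 ± 0.131 FPKM, Adora2a had 0.0665 to 0.402, and Adora1 and Adora3 were listed at 0. Part of the exons of Entpd2 (28.8%, with Npdc1) and of Adora3 (20.9%, with Tmigd3) overlaps another gene on the same strand, which makes these 2 levels uncertain.

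For Mcam, the matrix ligand gene Lama4 had 43.3 ± 1.13 FPKM and Lama5 had 10.9 ± 0.544 (SD, n = 3), both above Mcam in every library. Fap has a close relative in Dpp4, which is also a surface protease, and Dpp4 had 1, 0 and 2 fragments. The cytosolic relatives had 41.8 ± 1.30 FPKM for Dpp8, 20.2 ± 0.783 for Dpp9 and 15.3 ± 0.457 for Prep (SD, n = 3).

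A further list of 12 stromal surface genes was read in the same libraries. At least 1 FPKM in every library was found for 8 of them, against 48.6% of protein-coding genes. These were Itgb1, Cd9, Pdgfra, Pdpn, Alcam, Cspg4, Pdgfrb and Lepr, and the median of the 12 means was 45.3 FPKM. Pdgfra, a growth factor receptor used to define fibroblasts, had 147 ± 2.06 FPKM (SD, n = 3) and Cd34 lay above it by a factor of 2.40 ± 0.0272. Pdgfrb, its relative in mural cells and fibroblasts, had 31.6 ± 1.06 FPKM, and Cspg4 had 59.0 ± 1.05 FPKM. Pi16, a marker of fibroblast progenitors in tissue, had 0.428 to 0.689 FPKM, Icam1 had at most 2 fragments per library and Ngfr was listed at 0. The adhesion molecules Vcam1 and Icam1 were thus far apart in these cells.

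Fibroblast genes were present beside the markers. Of 10 such genes, 9 had at least 1 FPKM in every library, against 48.6% of protein-coding genes. They were led by Fn1 and followed by Col1a2, Vim, Col1a1, Col3a1, Sparc, Prrx1, Dcn and S100a4, whereas Lum was listed at 0. The same share stands beside the counts of the cell type lists that follow, and these counts describe the chosen lists only. Blood cell, endothelial, mural, epithelial and retinal markers were also read, since several of the 10 surface markers occur outside fibroblasts. Of 10 blood cell genes only Cd14, with 17.8 ± 0.254 FPKM (SD, n = 3), reached 1 FPKM in every library. Ptprc, which encodes CD45, had 0, 2 and 1 fragments, and Itgam, Cd3e, Adgre1, H2-Aa and Kit were listed at 0. Of the exon bases of Itgam, 68.7% also belong to Gm49368 on the same strand, as do 51.7% of those of S100a4 to Gm42674, so the counting may have left out reads there and these 2 levels are uncertain. Cd34 lay above Cd14 by a factor of 19.8 ± 0.272 (SD, n = 3), and Ptprc, which defines blood cells, was near 0.

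Of 10 endothelial genes, 2 reached 1 FPKM in every library, Vwf with 1.64 ± 0.190 FPKM and Cdh5 with 1.349 ± 0.290 (SD, n = 3), and the summed level of the list was 2.99 to 3.62 FPKM. Pecam1 stayed between 0.0565 and 0.0841 FPKM, and Emcn, Cldn5 and Erg were listed at 0. None of 10 mural cell genes reached 1 FPKM in every library, with Des the highest at 0.832 to 1.44 FPKM and Kcnj8 listed at 0. This count covers the 10 listed genes only. Outside that list, Pdgfrb (31.6 ± 1.06 FPKM) and Cd248 (43.9 ± 1.42 FPKM), described above for mural cells or pericytes, were high, whereas Mcam stayed below 1 FPKM. Cspg4, read above with the stromal surface genes, was higher still, with 59.0 ± 1.05 FPKM. Of 10 epithelial genes only Krt14 reached 1 FPKM in every library, with 8.39 ± 0.291 FPKM, and Epcam was listed at 0. None of 10 retinal genes did, although the labels mention retina, and the highest of them, Rcvrn, had 0.202 to 0.620 FPKM while Nrl was listed at 0.

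The starts of the marker genes were read next, since expression differed by orders of magnitude between them. RefSeq promoter windows of GRCm38.p6, each from 250 bases before to 50 bases after an annotated start, were matched by symbol for 5 of the 10 markers. In 3 of them, the stretch before the start lies outside annotated exons. These stretches belong to Cd34 and Cd44, the highest markers, and to Eng, a low one, and are shown 5′ to 3′ on the strand of the gene with each CG dinucleotide, the site of DNA methylation in mammals, in capitals.
Cd34, chr1:194938571-194938818, plus strand: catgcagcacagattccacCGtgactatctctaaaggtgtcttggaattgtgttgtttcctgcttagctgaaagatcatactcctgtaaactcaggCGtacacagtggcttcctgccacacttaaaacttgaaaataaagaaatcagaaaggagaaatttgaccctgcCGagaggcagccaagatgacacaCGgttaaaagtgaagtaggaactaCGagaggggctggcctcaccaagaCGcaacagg
Cd44, chr2:102901666-102901915, minus strand: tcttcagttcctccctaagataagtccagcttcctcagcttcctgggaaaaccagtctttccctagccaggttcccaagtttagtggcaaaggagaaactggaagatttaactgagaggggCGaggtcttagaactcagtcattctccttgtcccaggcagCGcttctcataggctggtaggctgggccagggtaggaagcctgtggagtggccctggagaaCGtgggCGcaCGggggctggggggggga
Eng, chr2:32646345-32646594, plus strand: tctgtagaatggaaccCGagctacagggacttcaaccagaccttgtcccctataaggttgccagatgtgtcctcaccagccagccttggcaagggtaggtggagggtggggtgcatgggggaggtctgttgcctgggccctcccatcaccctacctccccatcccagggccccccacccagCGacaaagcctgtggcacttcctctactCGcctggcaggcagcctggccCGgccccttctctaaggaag

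The stretches held few CG dinucleotides, with 6 in the 248 bases of Cd34, 5 in the 250 bases of Cd44 and 4 in the 250 bases of Eng. Over the whole window of 300 bases, Cd34 held 7 CG dinucleotides, Cd44 held 6 and Eng held 6, against a median of 7 over 32851 windows. Mcam held 29 and Nt5e held 23, more than 87.1% and 78.5% of all windows. The first base of both windows lies in an annotated exon, counted for any gene on either strand. The window of Nt5e (88327359 to 88327658) lies inside the annotated gene. That of Mcam (44134408 to 44134707) begins before the annotated gene, which starts at 44134469. Neither window therefore opens with a stretch outside annotated exons like those of Cd34, Cd44 and Eng. The 2 windows dense in CG thus belonged to markers below 1 FPKM, whereas the windows of Cd34, the highest marker, and Eng, a low one, differed by 1 CG dinucleotide. Of the 7246 listed genes with at least 20 CG dinucleotides in a window, 75.8% had at least 1 FPKM in every library, against 25.1% of the 13497 genes with fewer. By these windows, Mcam and Nt5e lay on the less frequent side of the first class and Cd34, Cd44 and Eng on the less frequent side of the second. The Nt5e window lies inside the gene and that of Mcam begins in an annotated exon. Neither is therefore read here as a CG-dense promoter at a low level. DNA methylation was not measured here.

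**Figure D5:**
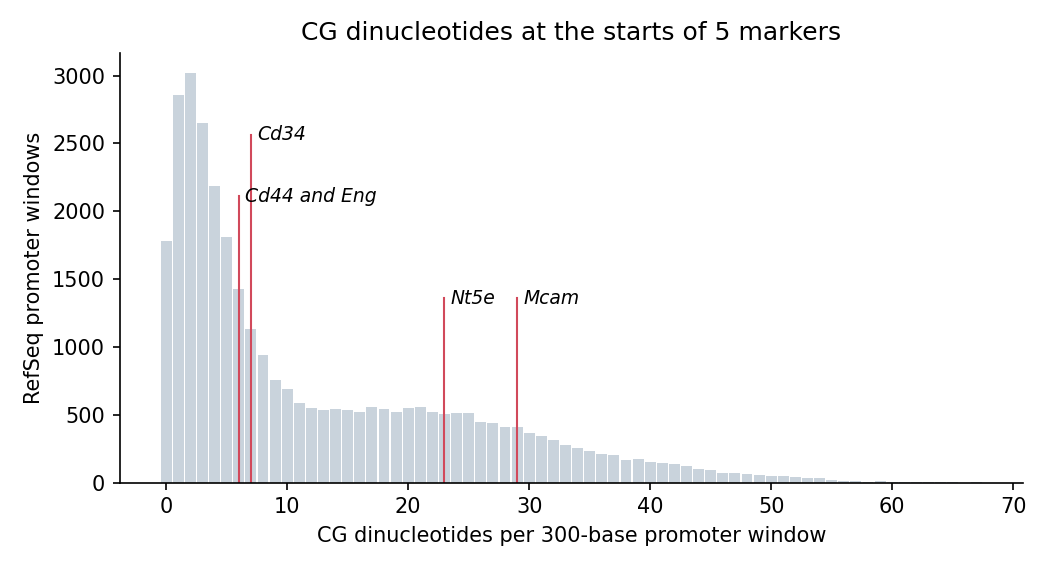
Number of RefSeq promoter windows by their count of CG dinucleotides per 300 bases, with red lines at the 5 markers that have a window. Cd34, Cd44 and Eng lie near the median of 7, and Nt5e and Mcam lie at 23 and 29.

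Short promoter motifs were searched on both strands in the same windows. The letters TATAAA were found in none of the 5 markers and in 13.6% of all windows, and CCAAT was found in none of the 5 and in 37.4% of all windows. The letters GGGCGG were found in Cd44, Mcam and Nt5e and in 35.7% of all windows. In these windows, none of the motifs separated Cd34 and Cd44 from Eng, Mcam and Nt5e. The markers without a window were not read.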

How the data were processed

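UMI-RNAseq was measured in 3 libraries of NIH3T3. The submitters' processing notes name UMI-tools 1.0.0, HISAT2 2.0.4 and HTSeq 0.6.1, and the genome build and annotation behind the counts are not given in the sources used here. The authors removed reads with the same position and UMI, counted the rest per gene and deposited FPKM values, 1 column per library, in a pair of tables with identical values. No value column was left unused (0).

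A count model was not fitted to the FPKM values. Whole fragments were recovered as FPKM times gene length times library total, with the mean isoform length of GENCODE M21 (GRCm38), in which 55394 of 55573 gene IDs were found. The library totals were themselves found from the FPKM values of genes with 1 annotated isoform. Of 66808 values above 0, 99.2% came out whole within 0.02 fragments, including those of the 10 markers. The recovery was also run on simulated data built with the same lengths and formula, which tests the arithmetic and not the annotation. Intervals are exact 95% intervals, and a count of 0 was read as at most 3 fragments. Shared words and overlaps come from the same annotation. Levels were compared per length with an exact sign-flip permutation test. Python 3.11.15, numpy 2.4.6, pandas 2.3.3, scipy 1.17.1 and matplotlib 3.10.9 were used.

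The markers and gene lists were chosen with earlier results of these data known. Genes named are the markers, their listed partners, genes overlapping or sharing words with a marker, and, of each cell type list, the highest and lowest gene and those with at least 1 FPKM in every library, with others named beside them as examples chosen after their values were seen. Alternatives were leaving out each library, other FPKM limits, the median over libraries in place of the mean, pseudocounts of 1 and 0.1, scaling by median of ratios, rescaling to TPM, the longest isoform and no division by length. The promoter search was chosen after the values were seen. The values of 1 listed partner gene are not reported here.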

Additional observations from a re-analysis of the deposited data

How the results depend on the processing

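Each alternative was applied in turn. Of 189 values obtained, 157 kept their direction or stayed within the SD between libraries, or within 1.5 times for a count. Part of this was fixed in advance. With 3 libraries, the mean of a marker without a library, or its median over libraries, always lies within the SD. A pseudocount cannot reverse a ratio within a library. Such kept values are no measure of stability. The sign of 3 log2 ratios reversed. With the longest isoform, the log2 ratio of Cd44 over Ly6a was -0.29 and that of Thy1 over Cd248 was -0.53, and with fragments not divided by length the latter was -1.12. The median over the 10 markers became 46.4 after rescaling to TPM, a unit with another total, and 21.9 with the longest isoform, against 32.0 FPKM. The number of markers past the limit was 9 with FPKM above 0, 8 with at least 0.1 and 6 with at least 10, against 7. At least 10 FPKM was reached by 34.9% of protein-coding genes, and their shares above 0 and at 0.1 were not computed. These counts and those of the lists that follow are therefore descriptions only. With FPKM above 0 in every library as the limit, the lists held 2 blood cell, 4 endothelial, 3 mural, 3 epithelial and 4 retinal genes. With at least 0.1 they held 2 mural, 3 epithelial and 3 retinal genes, and with at least 10 they held 0 endothelial and 0 epithelial genes. Leaving out each library in turn changed no count past 1.5 times and no direction. No direction could change, since the higher marker of each tested pair lay above its neighbour in all 3 libraries. The mean of Fap was 0.0185 FPKM without library 2 and 0.0567 FPKM without library 3, against 0.0378. No paired analysis was possible because the 3 libraries belong to a single condition. The levels of Nt5e and Fap rest on at most 7 fragments per library, and their order in a single library is uncertain and was not tested.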

Other observations

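The mouse symbols that carry a CD number were read as a wider view of the cell surface, a rule chosen after the values were seen. Among 77 such genes, 28 had at least 1 FPKM in every library (36.4%), against 48.6% of protein-coding genes, and 30 were listed at 0. The median over all listed genes was 0 FPKM, and the share of protein-coding genes listed at 0 was not computed. At least 100 FPKM in every library was reached by 9 of them, in the order Cd63, Cd34, Cd151, Cd164, Cd81, Cd9, Cd109, Cd47 and Cd44. The share of protein-coding genes past 100 FPKM was not computed, but the mean of Cd44, the lowest of these, exceeded that of 95.4% of protein-coding genes. These counts are a description of the symbols read. Cd63, Cd151, Cd81 and Cd9 encode tetraspanins, small membrane organizers present on many cell types, with 438 ± 4.61, 199 ± 2.86, 190.0 ± 1.89 and 176 ± 0.302 FPKM (SD, n = 3 each). Cd109, a GPI-anchored co-receptor of TGF-beta signalling, had 139 ± 2.06 FPKM, and Cd47, which signals to phagocytes, had 126 ± 0.955 FPKM.

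Several genes best known from white blood cells were above 1 FPKM while Ptprc was near 0. Cd14, which binds bacterial lipopolysaccharide, had 17.8 FPKM, Cd33 had 14.0 ± 0.597 FPKM and Cd80, a T cell co-stimulator, had 8.98 ± 0.211 FPKM (SD, n = 3). Whether these transcripts came from NIH3T3 or from other cells was not tested.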
